A study of Homo sapiens with 6 samples.

Results

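This report concerns 10 genes that encode the cytosolic factors of translation elongation and termination, chosen by name: EEF1A1, EEF1B2, EEF1D, EEF1G, EEF2, EEF2K, EIF5A, ETF1, GSPT1 and ABCE1. All 10 were found among the 20289 genes of the deposited table by matching Ensembl identifiers to symbols. The table holds ribosome footprints, the mRNA fragments that a translating ribosome protects from nuclease, from RKO, a human colorectal carcinoma cell line. Control libraries (shControl, n = 3) came from cells labelled as wild type with a control short hairpin RNA, and knockdown libraries (shTRMT6, n = 3) from cells with a hairpin against TRMT6, a subunit of the enzyme that places the methyl mark m1A on tRNAs. No time, dose, clone or hairpin sequence is given in the labels, and 1 hairpin name stands for the knockdown, so effects of the hairpin and of TRMT6 cannot be told apart.

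In elongation, the GTPase eEF1A (EEF1A1) carries each aminoacyl-tRNA to the ribosome, and the eEF1B complex (EEF1B2, EEF1D and EEF1G) exchanges its GDP for GTP. The GTPase eEF2 then moves the ribosome by a codon, and its kinase eEF2K (EEF2K) slows it by phosphorylation. The protein eIF5A (EIF5A), which carries the amino acid hypusine, helps peptide bonds form at difficult sequences such as runs of proline and also acts in termination. At a stop codon eRF1 (ETF1) recognises the codon and releases the protein together with the GTPase eRF3a (GSPT1), and the ATPase ABCE1 splits the ribosome into subunits. Many elongation factor mRNAs, like those of ribosomal proteins, belong to the TOP class, whose transcripts start with a C followed by a run of pyrimidines and whose translation depends on mTOR.

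The start of transcription is shown first, because the eEF1 genes and EEF2 are known TOP genes yet had estimates of change with opposite signs. Of these genes only EEF1B2 passed the test described below, and EEF1D turned sign with quantile normalization. Changes also ran with coding length and level across all tested genes, as given below. Each line gives 30 bases of RefSeq sequence (GRCh38.p14), from 10 bases before the annotated start to 20 bases from it on, and capitals mark a C at the start followed by at least 4 bases that are each C or T, on the transcribed strand.
EEF1A1 (chr6:73521013-73521042, minus strand): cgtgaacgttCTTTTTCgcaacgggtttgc
EEF2 (chr19:3985444-3985473, minus strand): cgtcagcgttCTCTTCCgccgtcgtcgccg
EEF1B2, start 2 (chr2:206159885-206159914, plus strand): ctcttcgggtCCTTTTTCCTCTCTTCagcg
EEF1G (chr11:62573872-62573901, minus strand): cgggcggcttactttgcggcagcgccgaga
EEF2K (chr16:22206268-22206297, plus strand): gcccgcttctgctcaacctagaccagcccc
The motif stood at the start of EEF1A1, EEF2 and 1 of 2 annotated starts of EEF1B2. Among all 35116 annotated RefSeq starts it stood at 4.07%, and 5.14% of their 27305 genes had it at 1 or more starts. It was not at the annotated starts of EEF1G, EEF2K, EIF5A, ETF1, GSPT1 or ABCE1, which says only that these letters are not at that position. Annotated starts were examined for 9 of the 10 genes. Those of EEF1D were left out and not examined for the motif.

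Several of these genes have near-identical copies elsewhere, which bears on how a short footprint can be assigned. For EIF5A the stretch around the codon of lysine 50, the residue that becomes hypusine, is shown from GENCODE 29 transcripts (GRCh38), coding bases 133 to 174, with capitals where a paralog differs from EIF5A.
EIF5A: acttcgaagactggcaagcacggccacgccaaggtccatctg
EIF5AL1: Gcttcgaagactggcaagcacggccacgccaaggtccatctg
EIF5A2: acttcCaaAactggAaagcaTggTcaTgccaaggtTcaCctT
The retrogene EIF5AL1 differed from EIF5A at 1 of these 42 bases and the paralog EIF5A2 at 9. Of all 28-nt windows of the EIF5A coding sequence, 78.3% also occurred in EIF5AL1, whose deposited values were at most 1.74 FPKM. For EEF1A1, 99.0% of windows occurred in a transcript of another gene, among 44 genes that share at least 1 window with it, for EEF1B2 87.7%, for ABCE1 50.9%, for ETF1 38.7% and for EEF1D 22.7%. These other transcripts were not protein-coding ones. For EEF1G the share was 100%, of which most came from an overlapping gene model listed at no more than 1.32 FPKM. EEF2 and EEF2K had no such window. The levels of EEF1A1, EEF1B2, EEF1G and EIF5A are therefore less certain than those of EEF2 and EEF2K, since how reads of copies were divided is not given in the sources used here. To a smaller degree this also holds for ABCE1, ETF1 and EEF1D, and least for GSPT1, with 6.9% of windows shared.

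The values are FPKM, footprints scaled to gene length and to the mapped reads of the library, so levels of different genes can be compared per length. Steps between low values gave an estimated 2574000 to 4098000 reads per library. TRMT6 had 57.6, 58.4 and 95.3 FPKM in shControl and 20.7, 21.9 and 24.1 FPKM in shTRMT6 (log2 fold change -1.58, limma adjusted p = 0.00301), the direction the labels give. Of the markers chosen for RKO or colon epithelium, KRT8, KRT18, EPCAM, CDX2 and VIM had footprints, and CDH1 and VIL1 were listed at 0 in every library. Of 8 markers of other cell types, 7 were at 2.18 FPKM or below in every library and CD68, a lysosomal protein that many lines make, was at 559 to 754 FPKM. The sum of the 8 was 560 to 741 FPKM in shControl and 577 to 757 FPKM in shTRMT6. Nothing in the labels states whether replicates were grown separately, and p-values therefore measure only the spread between these libraries. Footprint level reflects both mRNA amount and ribosomes per mRNA, which cannot be told apart here. In bulk lysate, neither can fewer cells that use a gene and less of its RNA per cell.

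After knockdown, on the log2 scale, footprints on EIF5A fell by 1.08 and those on EEF1B2 by 1.01, and those on EEF2K rose by 1.17. These 3 of 10 genes passed the test (limma on log2(FPKM + 1), adjusted p under 0.05 over all 11566 tested genes), 1 higher and 2 lower. In the same test 26.5% of tested genes were higher and 9.04% lower. The other 7 did not pass: EEF1A1, EEF1D, EEF1G, ETF1, GSPT1 and ABCE1 had negative estimates and EEF2 a positive one. The median log2 fold change of the 10 was -0.56, against 0.39 for all tested genes. The groups did not overlap for 8 of the 10, 6 lower and 2 higher, where 14.3% of tested genes lay wholly lower and 37.0% wholly higher.

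**Figure D1:**
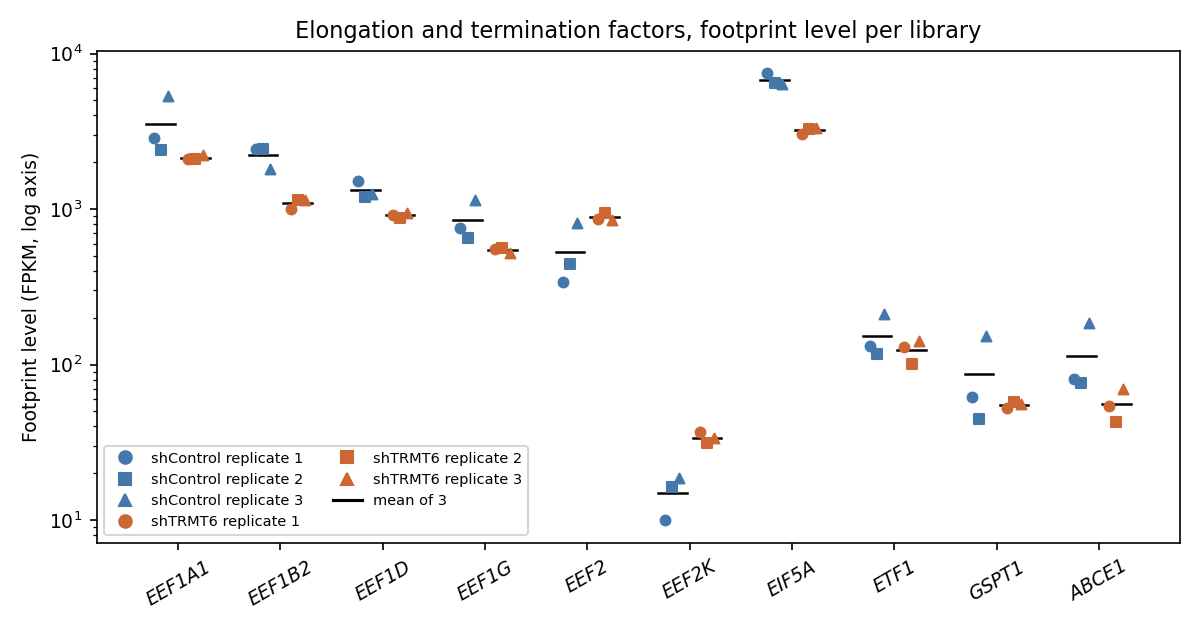
Footprint level (FPKM, log axis) of the 10 factors in each library, with symbols for replicates 1 to 3 and a bar for each group mean. Points of the knockdown libraries lie close together except in ABCE1 and ETF1, where they are further apart. Control replicate 3 stands above the other controls for 7 of the 10 genes.

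The spread was not even between the groups. The coefficient of variation was larger in shControl than in shTRMT6 for all 10 genes, as it was for 71.7% of tested genes. In GSPT1 it was 67.5% in shControl and 4.64% in shTRMT6, and in EEF2 47.2% and 5.85%. Control replicate 3 had the highest control value of 7 of the 10 genes (EEF1A1, EEF1G, EEF2, EEF2K, ETF1, GSPT1 and ABCE1), and the lowest of EIF5A and EEF1B2. Among tested genes this library was the highest control for 31.9%. Without it, 2 of the 10 were higher and 3 lower, since EEF2 and EEF1D then passed, among 28.3% of tested genes higher and 12.3% lower.

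EEF1A1 (ENSG00000156508, chr6:73515750-73523797, minus strand) encodes the tRNA carrier of elongation. Its footprint level was 2849, 2415 and 5322 FPKM in shControl and 2093, 2110 and 2228 FPKM in shTRMT6. Every knockdown library lay below every control, but controls 1 and 2 were near the knockdown values and control 3 was far above. The log2 fold change of -0.63 (95% interval -1.28 to 0.02) did not pass (limma adjusted p = 0.115), and was -0.29 without control replicate 3 (limma adjusted p = 0.110). Its paralog EEF1A2, which replaces it in neurons and muscle, was listed at 0 in all 6 libraries.

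For each of the exchange factor subunits, the highest knockdown value lay below the lowest control value. EEF1B2 (ENSG00000114942, chr2:206159585-206162928, plus strand), which encodes the catalytic eEF1Bα, had 2424, 2432 and 1802 FPKM in shControl and 1003, 1146 and 1140 FPKM in shTRMT6. The mean went from 2220 ± 362 to 1096 ± 81.1 FPKM (SD, n = 3 each), a log2 fold change of -1.01 (SE 0.21, limma adjusted p = 0.00639). Leaving out any single library kept the call, and it was lost with quantile normalization (-0.40, limma adjusted p = 0.0862).

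EEF1D (ENSG00000104529, chr8:143579697-143599541, minus strand), the second catalytic subunit, had 1514, 1195 and 1248 FPKM in shControl and 918, 880 and 946 FPKM in shTRMT6. The groups were apart by a smaller step, and the log2 fold change of -0.52 (95% interval -0.95 to -0.09) did not pass (limma adjusted p = 0.0613). Its annotated coding models differ widely in length, which makes its level per length uncertain. The model used here has 1944 coding nt, and its length group, trend-removed value and share of windows depend on that choice. EEF1G (ENSG00000254772, chr11:62559601-62574086, minus strand), the scaffold of the complex, had 758, 652 and 1139 FPKM in shControl and 554, 562 and 519 FPKM in shTRMT6. Control replicate 3 was again the highest, and the log2 fold change of -0.60 (95% interval -1.13 to -0.06) did not pass (limma adjusted p = 0.0763).

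EEF2 (ENSG00000167658, chr19:3976056-3985469, minus strand), the translocase, was the only abundant elongation factor of the 10 with a positive estimate. Its level was 338, 441 and 815 FPKM in shControl and 866, 950 and 854 FPKM in shTRMT6. The groups did not overlap, but control replicate 3 reached nearly the lowest knockdown value. The log2 fold change of 0.84 (95% interval 0.16 to 1.52) did not pass (limma adjusted p = 0.0542). It passed without control replicate 3 (1.2, limma adjusted p = 0.00201) and after removal of level and length trends (0.78, 0.0239). It also passed with quantile normalization (limma adjusted p = 0.0173) and with the library sum taken without mitochondrially encoded genes (1.08, 0.0314). Under median scaling it was 0.35 (0.419).

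EEF2K (ENSG00000103319, chr16:22206282-22288732, plus strand), the kinase that inhibits eEF2, was the least abundant of the 10 genes in both groups. It had 9.97, 16.2 and 18.6 FPKM in shControl and 36.7, 31.1 and 33.7 FPKM in shTRMT6, which rest on an estimated 71.1 to 278 reads per library. All knockdown values were above all control values. The mean rose from 14.9 ± 4.48 to 33.8 ± 2.79 FPKM (SD, n = 3 each), a log2 fold change of 1.17 (SE 0.29, limma adjusted p = 0.0137). The call ended without shTRMT6 replicate 1 (limma adjusted p = 0.0587), without shTRMT6 replicate 3 (0.0502), with median scaling (0.69, 0.0893), with quantile normalization (0.63, 0.105) and with level and length trends removed (0.51, 0.162).

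EIF5A (ENSG00000132507, chr17:7306999-7312463, plus strand) had the highest level of the 10 genes in both groups and, as deposited, the most negative estimate among them. ABCE1 was lower than EIF5A with quantile normalization, with trends removed and without shControl replicate 1, shControl replicate 2 or shTRMT6 replicate 3, and EEF1B2 without shControl replicate 3. GSPT1, which did not pass, was also lower than EIF5A with quantile normalization (-0.74 against -0.67) and with trends removed (-0.84 against -0.46). EIF5A had 7493, 6498 and 6350 FPKM in shControl and 3037, 3288 and 3300 FPKM in shTRMT6, with each group close together and a wide gap between them. The mean fell from 6780 ± 622 to 3208 ± 148 FPKM (SD, n = 3 each), a log2 fold change of -1.08 (SE 0.20, limma adjusted p = 0.00391). It passed in all 14 alternative fits, with adjusted p-values from 0.00103 to 0.0293, although the change was -0.46 with level and length trends removed. The paralog EIF5A2 had 51.8, 52.9 and 24.1 FPKM in shControl and 25.1, 23.9 and 26.8 FPKM in shTRMT6. There the groups overlapped through control replicate 3, and the log2 fold change of -0.66 did not pass (limma adjusted p = 0.138); without that library it was -1.02 (limma adjusted p = 0.00678). EIF5A2 also passed as lower with median scaling (-1.14, limma adjusted p = 0.0208), quantile normalization (0.0212) and trends removed (-0.82, 0.0339).

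The release factors did not pass in either direction. ETF1 (ENSG00000120705, chr5:138506095-138543300, minus strand), which encodes eRF1, had 132, 117 and 210 FPKM in shControl and 129, 100 and 141 FPKM in shTRMT6, with overlapping groups (log2 fold change -0.28, 95% interval -0.88 to 0.33, limma adjusted p = 0.446). Without control replicate 3 it was -0.0265 (limma adjusted p = 0.921). GSPT1 (ENSG00000103342, chr16:11868128-11916082, minus strand), which encodes eRF3a, had 61.7, 44.7 and 153 FPKM in shControl and 52.4, 57.4 and 55.8 FPKM in shTRMT6. Its groups also overlapped, and the negative estimate came from control replicate 3: the log2 fold change was -0.44 (95% interval -1.33 to 0.45, limma adjusted p = 0.408) with all libraries and 0.07 without that one. The retrogene copy GSPT2 was at 1.72 to 5.99 FPKM and did not pass (0.49, limma adjusted p = 0.392).

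ABCE1 (ENSG00000164163, chr4:145097932-145129179, plus strand), the recycling ATPase, had 80.9, 76.4 and 184 FPKM in shControl and 54.3, 42.4 and 69.9 FPKM in shTRMT6. Every knockdown library was below every control, and control replicate 3 was far above the other controls. The log2 fold change of -0.93 (95% interval -1.72 to -0.13) did not pass (limma adjusted p = 0.0672). It passed with median scaling (-1.42, limma adjusted p = 0.0155), quantile normalization (-1.18, 0.0297) and level and length trends removed (-1.36, 0.0145), and was -0.52 without control replicate 3 (0.114).

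Ratios of partner factors within a library are free of library scaling, and 7 were compared. The FPKM of EEF1A1 per FPKM of EEF2, a ratio of levels per length, was 8.42, 5.48 and 6.53 in shControl and 2.42, 2.22 and 2.61 in shTRMT6. The ratio was lower in every knockdown library, also against control replicate 3, and its log2 fell by 1.48, which is 2.78-fold (exact permutation test, two-sided, p = 0.1, which is the lower limit with 3 libraries a group, and 0.35 adjusted over the 7 ratios). Without any 1 library the log2 difference was between -1.62 and -1.31. With level and length trends removed, the log2 fold change was -0.35 for EEF1A1 and 0.78 for EEF2, which are closer together. The ratio also sets a gene with 99.0% of windows shared against one with none.

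The ratio of ABCE1 to ETF1 also did not overlap between the groups. It was 0.612, 0.651 and 0.875 in shControl and 0.420, 0.422 and 0.496 in shTRMT6 (log2 difference -0.66, two-sided exact permutation p = 0.1, adjusted 0.35). Both genes share windows with transcripts of other genes (50.9% for ABCE1 and 38.7% for ETF1), which limits this ratio. How often ratios of other gene pairs separate the groups was not measured. Single genes often did, with 37% of tested genes wholly higher in shTRMT6 and 14.3% wholly lower.

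The other 5 ratios overlapped between groups. Within the eEF1 complexes, EEF1A1 to EEF1G was 3.76, 3.70 and 4.67 in shControl and 3.78, 3.75 and 4.30 in shTRMT6 (log2 difference -0.03, two-sided exact permutation p = 0.9), the narrowest of the 7 comparisons. EEF1D to EEF1G was 2.00, 1.83 and 1.10 in shControl and 1.66, 1.57 and 1.82 in shTRMT6 (log2 difference 0.08, exact permutation p = 1). EEF1B2 to EEF1G was 3.20, 3.73 and 1.58 against 1.81, 2.04 and 2.20 (log2 difference -0.41, exact permutation p = 0.4), and here the low control value was replicate 3. EEF2K to EEF2 had a log2 difference of 0.38 (exact permutation p = 0.2) and ETF1 to GSPT1 one of 0.17 (exact permutation p = 0.7). With 3 libraries a group these p-values do not show that the ratios were equal. Shared windows limit the eEF1 ratios too, at 99.0% for EEF1A1, 100% for EEF1G, 87.7% for EEF1B2 and 22.7% for EEF1D.

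**Figure D2:**
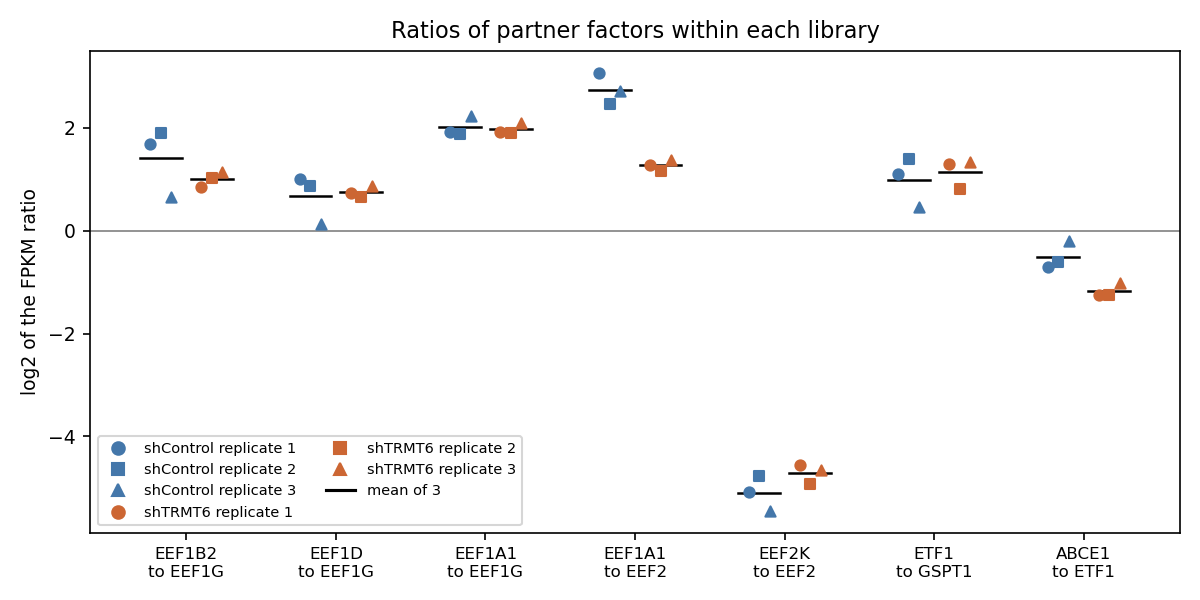
Log2 of the FPKM ratio of partner factors in each library, with a bar for each group mean. The ratios EEF1A1 to EEF2 and ABCE1 to ETF1 separate the groups, while EEF1A1 to EEF1G lies at about the same height in all 6 libraries.

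Together the 10 genes held 0.890%, 0.799% and 1.18% of the FPKM sum in shControl and 0.559%, 0.579% and 0.606% in shTRMT6. The mean share went from 0.956% ± 0.198 to 0.581% ± 0.0239 (n = 3, SD), with p = 0.1 by exact permutation (two-sided), again the lower limit. EIF5A had the largest share of the 10 in each library, at 0.374% to 0.434% in shControl and 0.194% to 0.215% in shTRMT6. Genes encoded by mitochondrial DNA took 0.790% to 2.02% of the sum in shControl and 7.74% to 13.7% in shTRMT6. Without them in the sum, the share of the 10 was 0.968% ± 0.195 and 0.658% ± 0.0365 (SD, n = 3 each), still lower in every knockdown library.

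The order of the levels was nearly the same in both groups: EIF5A, EEF1A1, EEF1B2 and EEF1D first, then EEF1G and EEF2, then ETF1, ABCE1, GSPT1 and EEF2K. EEF1G was above EEF2 in shControl and below it in shTRMT6. In shControl the values of these neighbours overlapped, as did those of EEF1A1 with EEF1B2, ETF1 with ABCE1 and ABCE1 with GSPT1. In shTRMT6 all EEF2 values were above all EEF1G values, and the overlapping neighbours were EEF1D with EEF2 and ABCE1 with GSPT1.

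Coding length and level moved with the change across the whole table. With tested genes in 8 equal groups by coding length, the median log2 fold change was -0.12 in the shortest group, where EIF5A lies, and 0.69 in the group that holds EEF2 and EEF2K. With 10 equal groups by mean level, the median was -0.39 in the highest, which holds EEF1A1, EEF1B2, EEF1D, EEF1G, EEF2 and EIF5A. EIF5A and EEF1B2 were below the median of their length group, and EEF2 was above the medians of both its length group and its level group. The part of length and level in these changes was measured only by the trend removal given next.

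**Figure D3:**
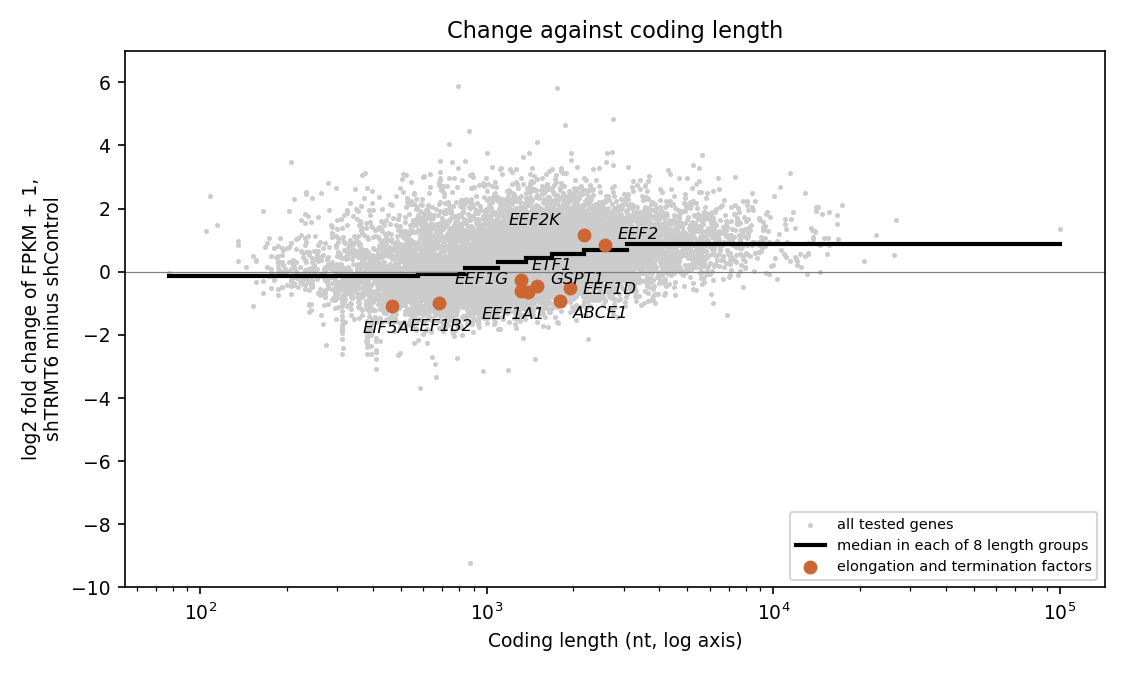
Log2 fold change (shTRMT6 minus shControl) against coding length in GENCODE 29 (nt, log axis) for tested genes in grey, with the median in each of 8 equal groups by length as bars and the 10 factors in orange. EIF5A and EEF1B2 are short and lie below 0, EEF2 and EEF2K are long and lie above 0, and the factors between them lie below the bar of their length group.

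Several calls depended on how the libraries were scaled. With each library divided by its median over tested genes, the median of all tested genes moved from 0.39 to -0.07 and 6 of the 10 factors were lower, 0 higher: EEF1A1, EEF1B2, EEF1D, EEF1G, EIF5A and ABCE1. In that setting 19.7% of tested genes were lower and 13.1% higher. With level and length trends removed, EIF5A, EEF1B2 and ABCE1 were lower and EEF2 higher, among 13.7% of genes lower and 13.4% higher. The sign of each of the 10 genes was the same in all of the scalings and trend corrections except EEF1D with quantile normalization (0.03, limma adjusted p = 0.918).

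**Figure D4:**
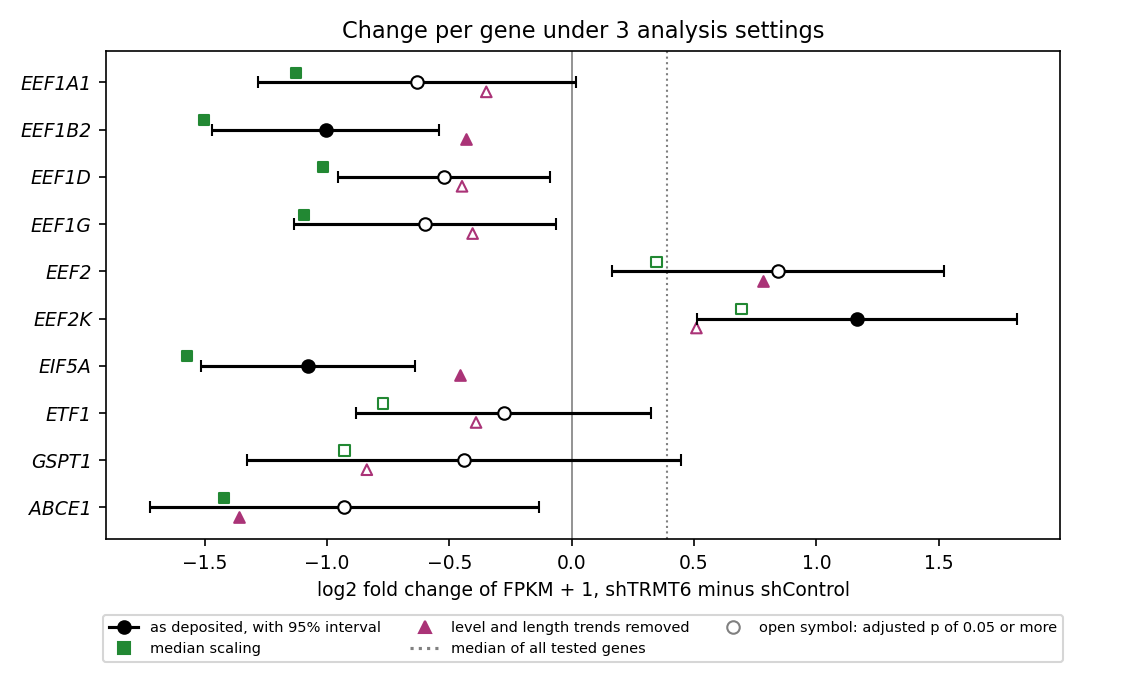
Log2 fold change of FPKM + 1 for each factor as deposited with its 95% interval (circles), with median scaling (squares) and with trends by level and coding length removed (triangles); filled symbols passed an adjusted p under 0.05 and the dotted line is the median of all tested genes, 0.39. Only EEF2 and EEF2K lie right of 0 in the 3 settings, and EIF5A and EEF1B2 are filled and left of 0 in all 3.

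Genes that act on or with these factors, and their mitochondrial counterparts, were taken from 5 lists. Their counts stand beside 26.5% higher, 9.04% lower and a median of 0.39 among all tested genes. In each of the 5 lists the share of tested genes called higher was below that background. The share called lower was above it for the eEF2K regulators (4 of 14) and the termination and recycling partners (1 of 9). With 9 to 14 tested genes in a list, a few calls move such a share, and no result about the lists is drawn from it. Among partners and modifiers of eEF1, 1 of 9 tested genes was higher, 0 lower, with a median log2 fold change of -0.18. It was EEF1AKMT3, a lysine methyltransferase of eEF1A, with 13.2, 14 and 3.63 FPKM in shControl and 15.2, 34.0 and 34.6 FPKM in shTRMT6 (log2 fold change 1.45, limma adjusted p = 0.0459). It is a low gene with wide spread, and lost its call without shControl replicate 1, shControl replicate 3, shTRMT6 replicate 2 or shTRMT6 replicate 3 (limma adjusted p from 0.0505 to 0.146). The call was also lost with median scaling (limma adjusted p = 0.145), where the list had 0 higher and 3 lower, and with quantile normalization (0.212) or trends removed (0.0573), each with 0 higher and 1 lower. Of all 11566 tested genes, quantile normalization gave 1602 higher and 1700 lower.

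Among the genes that modify eEF2 or eIF5A, 2 of 11 tested were higher and 0 lower, with a median log2 fold change of 0.35. Both encode proteins of the pathway that makes diphthamide, a modified histidine of eEF2. DPH7, which acts late in the pathway, had 24.5, 31.5 and 26.6 FPKM in shControl and 69.9, 74.8 and 61.0 FPKM in shTRMT6 (log2 fold change 1.29, limma adjusted p = 0.00376). DPH2, a subunit of the enzyme of the first step, had 48.8, 52.2 and 41.4 FPKM in shControl and 94.1, 87.1 and 97.8 FPKM in shTRMT6 (log2 fold change 0.96, limma adjusted p = 0.00898). DPH7 passed in all 14 alternative fits, and DPH2 did not with median scaling (0.47, limma adjusted p = 0.116) or with trends removed (0.58, 0.0607). The hypusine enzymes DHPS and DOHH had log2 fold changes of -0.07 and 0.36 and did not pass (limma adjusted p = 0.802 and 0.341).

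Among partners in termination and recycling, 2 of 9 were higher and 1 lower, with a median log2 fold change of 0.35. PABPC1, the poly(A)-binding protein, which contacts eRF3 and whose mRNA is also of the TOP class, had 279, 551 and 510 FPKM in shControl and 1518, 1747 and 1998 FPKM in shTRMT6 (log2 fold change 2.02, limma adjusted p = 0.00142). EIF2D, which removes tRNA from recycled small subunits, had 26.4, 84.6 and 29.2 FPKM in shControl and 188, 163 and 190 FPKM in shTRMT6 (log2 fold change 2.13, limma adjusted p = 0.00421). Both passed in all 14 alternative fits. MCTS1, a subunit of a heterodimer that does the same work as EIF2D, went the other way, with 38.8, 35.0 and 50.9 FPKM in shControl and 18.6, 22.4 and 26.8 FPKM in shTRMT6 (log2 fold change -0.85, limma adjusted p = 0.0330). Removal of a single library ended its call for 5 of the 6 libraries, the exception being shControl replicate 2, as did the library sum without mitochondrially encoded genes (limma adjusted p = 0.113), and its partner DENR did not pass (0.35, limma adjusted p = 0.427).

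Among regulators of eEF2K, 3 of 14 tested genes were higher and 4 lower, with a median log2 fold change of -0.04. PPP2CA, the main catalytic subunit of protein phosphatase 2A, had 268, 213 and 314 FPKM in shControl and 83.5, 74.7 and 88.9 FPKM in shTRMT6 (log2 fold change -1.66, limma adjusted p = 0.00131). PRKAB1, a regulatory subunit of the kinase AMPK, which activates eEF2K, had 7.84, 8.33 and 10.3 FPKM in shControl and 36.7, 37.1 and 24.6 FPKM in shTRMT6 (log2 fold change 1.77, limma adjusted p = 0.00244). Both passed in all 14 alternative fits and their groups were far apart. CALM2, which encodes calmodulin, the protein that switches eEF2K on, was lower (-0.73), and CALM3 (-0.60) did not pass. BTRC, part of the ubiquitin ligase that degrades eEF2K, was lower (-1.25), and MTOR (1.15) and MLST8 (1.00), subunits of the kinase complex upstream of eEF2K inhibition, were higher. CALM2 lost its call on removal of any library but shControl replicate 3, MLST8 on removal of shControl replicate 1, shTRMT6 replicate 1 or shTRMT6 replicate 2, and MTOR on removal of shTRMT6 replicate 3. With trends removed, MTOR was 0.19 (limma adjusted p = 0.628) and CALM2 -0.20 (0.267). With median scaling the list had 1 higher and 6 lower, and MTOR (0.68, limma adjusted p = 0.0762) and MLST8 (0.51, 0.179) were not called. With quantile normalization MTOR (0.58, 0.118) and CALM2 (-0.16, 0.522) were not called.

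Among the mitochondrial factors of elongation, termination and recycling, 1 of 10 was higher and 0 lower, with a median log2 fold change of -0.14. It was MTRF1L, a release factor of mitochondria, with 43.0, 59.8 and 35.2 FPKM in shControl and 69.9, 83.7 and 91.3 FPKM in shTRMT6 (log2 fold change 0.84, limma adjusted p = 0.0318). Removing shControl replicate 1 or any of the knockdown libraries ended its call (limma adjusted p from 0.0633 to 0.117). It was also lost with median scaling (0.35, limma adjusted p = 0.302), where the list had 0 higher and 3 lower, and with quantile normalization (0.53, 0.130) or trends removed (0.57, 0.099). The mitochondrial counterparts of eEF1A and eEF1B, TUFM and TSFM, had log2 fold changes of -0.29 and -0.60 and did not pass (limma adjusted p = 0.382 and 0.124).

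**Figure D5:**
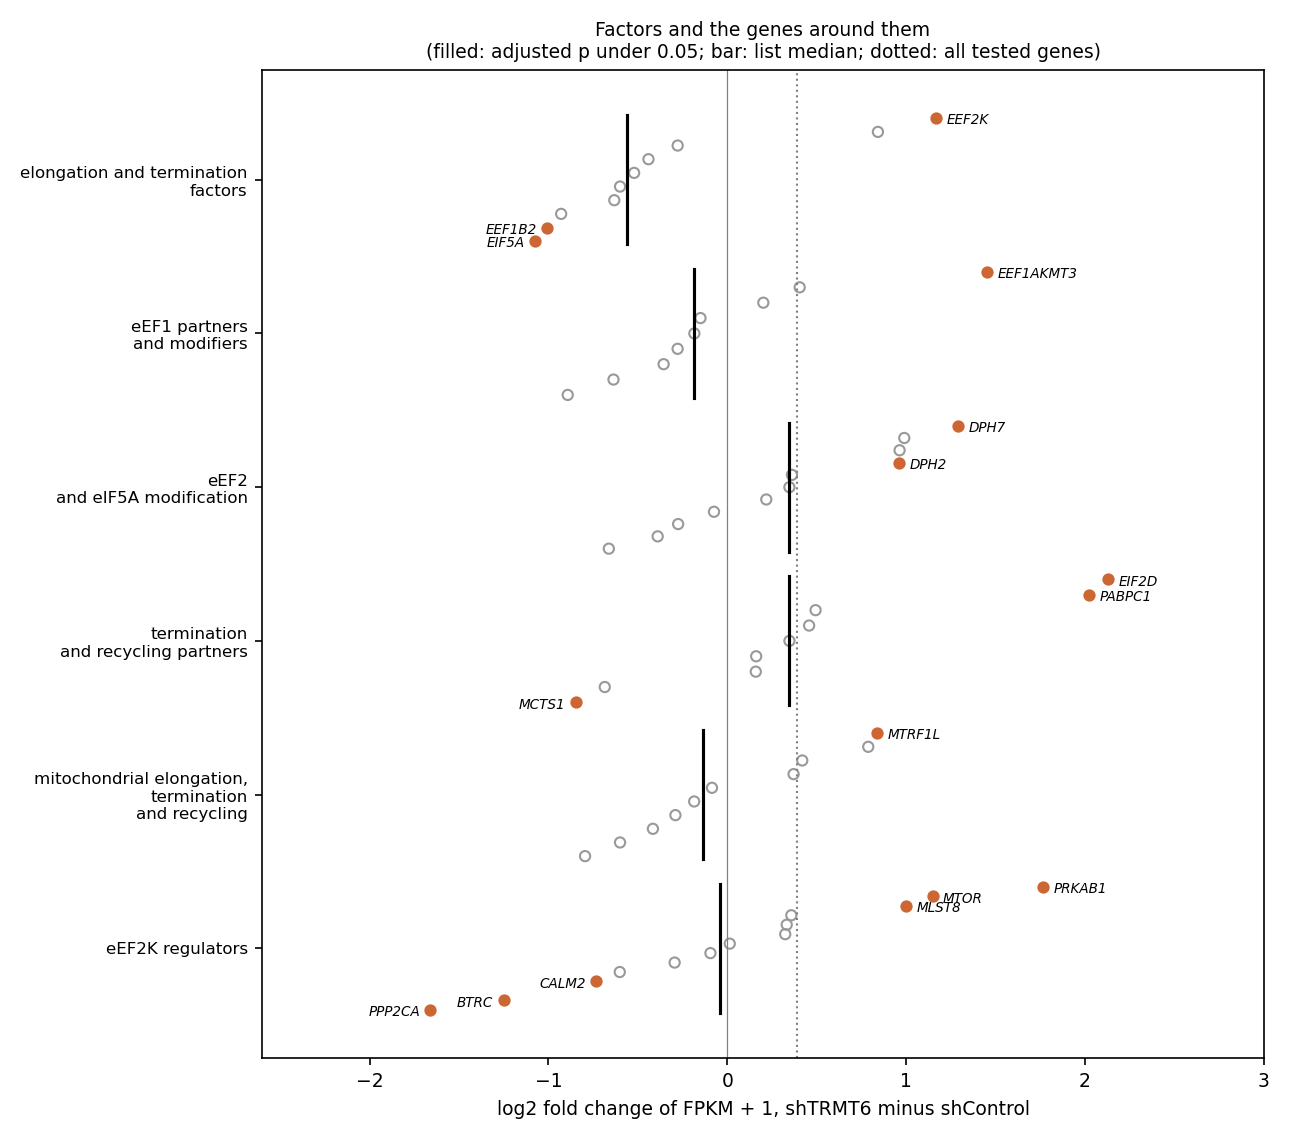
Log2 fold change (shTRMT6 minus shControl) of tested genes in the 10 factors and the 5 lists around them, with named orange points for genes past an adjusted p under 0.05, bars for list medians and a dotted line for the median of all tested genes; 1 eEF2K regulator is counted in its list's median and not plotted. Called genes lie on both sides of 0 among the factors, the termination partners and the eEF2K regulators.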

How the data were processed

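Per the labels' protocols, nuclease treatment of the cell lysate (RNase I, with DNase I) left protected fragments, which were passed over size exclusion columns and built into small RNA libraries. The authors deposited 1 FPKM value per gene and library, to 2 decimals. Tools named in the submitters' processing notes are fastp, STAR and RSEM. Their roles, the build, annotation, strand use and rRNA removal were not given in the sources used here. Each FPKM depends on the rest of its library.

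Columns NC and SH, numbered 1 to 3, were read as shControl and shTRMT6 replicates 1 to 3, which no label spells out. The test covered the 11566 genes that reached 1 FPKM in 3 or more libraries, and was run with limma 3.58.1 (R 4.3.3) on log2(FPKM + 1), group as the only term, eBayes with trend and Benjamini-Hochberg adjustment over all tested genes; such fold changes understate those of low genes. Shares and ratios of FPKM were compared by two-sided exact permutation. No count model was used. Reads per library were estimated from the steps of low FPKM values times coding length, of which 69.8% to 79.4% lay within 0.1 of a whole read. Symbols were found for 19705 of 20289 identifiers. Positions and coding lengths came from GENCODE 29, which may differ from the authors' annotation. The fit was tested on simulated data. Tables and plots used Python 3.11.15 with pandas 2.3.3, numpy 2.4.6 and matplotlib 3.10.9.

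The 10 genes, the lists and the alternatives were chosen with earlier results of these data known. Named were the 10 genes, TRMT6, close paralogs and, from each list, up to 4 called genes in each direction by smallest p; DENR, DHPS, DOHH, CALM3, TUFM and TSFM were chosen after their values were seen. Results of 1 eEF2K regulator, which is counted in its list, and of 1 marker are not reported here. Alternatives were median scaling, the sum without mitochondrially encoded genes, quantile normalization, trends by level and coding length removed (splines with 5 degrees of freedom), other filters, a pseudocount 10 times smaller (0.1), replicate number as a block, and leaving out each library.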

Additional observations from a re-analysis of the deposited data

How the results depend on the processing

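EIF5A passed in all 14 alternative fits. Of the 10 factors, 6 passed with median scaling and 5 with the replicate number as a block (2 higher, 3 lower, with EEF2 and ABCE1 added). With the block, 4211 of 11566 tested genes passed, 3146 higher and 1065 lower. The numbers were not taken to pair the libraries, since deviations of same-numbered libraries from their group means correlated by 0.012, 0.0134 and 0.102. For eEF1 partners and modifiers, 3 passed with median scaling, all lower where the 1 call as deposited was higher, 2 with the block (1 higher, 1 lower), 0 with no filter and 0 with a pseudocount of 0.1. Among all tested genes, 2822 of 13892 were higher and 959 lower with no filter. With the smaller pseudocount, 2920 of 11566 were higher and 1022 lower. For eEF2 and eIF5A modification, 4 of 11 passed with the library sum taken without mitochondrially encoded genes, all higher. The whole table moved the same way with that sum, with 4188 of 11566 tested genes higher and 707 lower. For mitochondrial factors, 3 passed with median scaling, again all lower against 1 higher as deposited, 2 (higher) with that library sum and 0 with trends removed.

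Leaving out each library in turn gave 2427 to 4698 called genes in all, 2 to 5 of the 10 factors, 0 to 2 eEF1 partners, 2 to 4 modification genes, 0 to 1 mitochondrial factors, 2 to 3 termination partners and 5 to 8 eEF2K regulators. Directions turned for GSPT1 (-0.81 to 0.0685) and for the log2 ratios EEF1D to EEF1G (-0.19 to 0.24), EEF1A1 to EEF1G (-0.0951 to 0.0764) and ETF1 to GSPT1 (-0.10 to 0.37). With quantile normalization EEF1D was 0.0295 and GSPT2 -0.26, and GSPT2 was -0.35 with trends removed. The causes were not tested. Fold changes of low genes such as EEF2K, EEF1AKMT3 and GSPT2 rest on few reads, and deposited FPKM allow no counting interval.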
